A study of Mus musculus with 7 samples.

Results

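The genes described here are those that red cell precursors use to build their membrane, to import iron, to make heme and to regulate their own maturation. They were chosen by name: 29 genes were listed, 28 of them were found among the 24062 genes of the deposited table, and all 28 passed the filter on low counts that left 15188 genes to test. The remaining listed gene was not analysed here. By role the 28 comprise 6 regulators (Klf1, Gata1, Epor, Nfe2, Hemgn, Trim10), 5 membrane skeleton genes (Slc4a1, Sptb, Ank1, Epb42, Add2), 5 surface proteins (Ermap, Rhag, Rhd, Kel, Tspan33), 2 iron importers (Tfrc, Slc25a37), 7 heme enzymes (Alas2, Alad, Uros, Urod, Cpox, Ppox, Fech) and 3 enzymes of red cell metabolism (Car1, Car2, Bpgm). Epb42 appears in the table under its older symbol Epb4.2, which RefSeq lists as a synonym.

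RNA was sequenced from whole mouse spleens in 2 groups: 3 enlarged spleens of genotype Vav1-iCre;Brca1F22-24/F22-24, also labelled Brca1∆/∆, and 4 wild-type C57BL6 spleens. All mice were 2 to 3 months old. Vav1-iCre drives the recombinase in blood-forming cells and their descendants and is known to act in endothelial cells as well, and the Brca1 allele has exons 22 to 24 placed for removal. Which cells of these spleens had lost the exons was not measured. The recombinase, the altered allele and the enlargement occur together in the mutant group and cannot be told apart from each other, nor from strain background, which is named for the wild type only. Each library is labelled as its own spleen, with nothing on litters or days, and the p-values therefore cover only how these spleens varied. In whole tissue, fewer cells of a type and less RNA per cell cannot be told apart.

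As background, red cells arise from progenitors that need erythropoietin. This hormone acts through its receptor, Epor, while the transcription factors Gata1 and Klf1 switch on most of the red cell program. Heme is built from glycine and succinyl-CoA, with Alas2 catalysing the first step and Fech inserting iron in the last, and iron enters the precursor through the transferrin receptor, Tfrc. The mouse spleen, unlike the adult human spleen, makes red cells throughout life in its red pulp, and it expands this activity when red cells are short.

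Sequences that bear on how these genes are switched on were taken from RefSeq promoter windows of build GRCm38.p6, the same assembly as mm10, covering 250 bases before each annotated start. Windows were given for 21 of the 28 genes, 24 windows in all because a few genes have more than 1 start. The GATA motif, searched as AGATAA and TGATAA on both strands, occurred in 12 of 24 windows (50%) against 16.6% of all 32851 windows of that length. The CACCC motif that Klf1 is known to bind, searched as CCNCNCCC on both strands, occurred in 13 (54.2%) against 45.9% of all windows. A composite of CTG, 8 or 9 bases of any kind and then a GATA motif, the pattern known for joint binding of Tal1 and Gata1, occurred in 4 (16.7%) against 0.935% of all. It contains the GATA motif and therefore overlaps it. Those 4 composites, in 3 surface protein genes and 1 membrane skeleton gene, are shown as the only ones found. Their genes moved together across spleens as described below, but so did genes without a composite in their window, such as Sptb and Trim10. Each is printed in the direction of transcription with 12 bases on either side and the CTG and GATA parts, or their reverse complements, in capitals. A match is a description of letters and not evidence that a factor binds.
Epb42, chr2:121037075-121037115, minus strand: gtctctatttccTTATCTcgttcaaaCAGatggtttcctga
Ermap, chr4:119190034-119190074, minus strand: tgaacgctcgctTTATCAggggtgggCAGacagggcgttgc
Kel, chr6:41704364-41704404, minus strand: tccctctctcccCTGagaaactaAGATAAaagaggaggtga
Rhag, chr17:40811106-40811146, plus strand: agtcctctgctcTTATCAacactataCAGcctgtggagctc
In each composite the spacer was 8 bases. The match ended 14 bases before the annotated start in Rhag, 50 bases before it in Ermap and Kel, and 209 bases before it in Epb42.

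Iron control of some genes works on the messenger itself. Iron-responsive elements are short hairpins bound by the iron regulatory proteins when iron is scarce; at the front of a message they block translation, and at its end they protect it from decay. GENCODE vM21 transcripts (mm10) were searched for a C, 5 bases, the loop CAGTG followed by A, C or T, and 5 bases pairing with the first 5, with G-T pairs allowed. Such an element lay in an untranslated region of 2 of the 28 genes and of 123 of 21877 coding genes (0.562%). The hairpins are shown because Alas2 and Tfrc carry them at opposite ends of the message. In the comparison at equal erythroid level given further on, Tfrc was higher in mutant spleens and Alas2 lower. The Alas2 difference was called in only 5 of 12 settings of that fit. Whether the hairpins had a part in either RNA level was not tested. The loop is in capitals.
Alas2, 5′ untranslated region, chrX:150547459-150547485, plus strand: tggttcgtcctCAGTGCagggcaacag
Tfrc, 3′ untranslated region, chr16:32631220-32631246, plus strand: attatcggaagCAGTGCcttccataat
Tfrc, 3′ untranslated region, chr16:32631599-32631625, plus strand: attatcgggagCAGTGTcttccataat
Tfrc, 3′ untranslated region, chr16:32631664-32631690, plus strand: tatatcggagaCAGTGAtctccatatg
Tfrc, 3′ untranslated region, chr16:32631711-32631737, plus strand: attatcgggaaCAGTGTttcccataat
Among the companion iron genes, Fth1, Ftl1 and the iron exporter Slc40a1 also held such an element, each in the 5′ untranslated region.

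The libraries held 26889712 to 63612532 counts. Levels are given as CPM, counts scaled to a common library total, with TMM factors that correct for the make-up of each library. Brca1 itself was at 52.5 ± 13.3 CPM (SD, n = 3) in mutant and 38.7 ± 26.4 CPM (n = 4) in wild-type spleens, and a whole-gene count says nothing about exons 22 to 24 alone. Marker RNA of lymphocytes differed widely between the groups. All 10 mature B cell markers were called lower in mutant spleens, with 28.9% of all tested genes lower. All 9 tested immature T cell markers were called higher, with 28.5% of all tested genes higher. Summed B cell marker level was 43.1 to 243 CPM in mutant against 4397 to 5857 CPM in wild-type spleens, and summed immature T marker level was 1605 to 3375 CPM against 171 to 203 CPM. The part of these shifts in the erythroid values was not tested.

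The erythroid genes did not separate the genotypes. With edgeR's quasi-likelihood test, 0 of the 28 had a Benjamini-Hochberg adjusted p under 0.05, 0 had an unadjusted p under that value, and the mutant and wild-type ranges overlapped for all 28. In the same fit 57.4% of the 15188 genes tested were called, and 61.7% had no overlap between groups. DESeq2 and limma-voom each also called 0 of the 28, with 1 and 0 at an unadjusted p under 0.05. The median log2 fold change, mutant minus wild type, was 0.23 over the 28 genes and -0.02 over all genes tested, with 23 above 0 and 5 below 0. Its direction rested on single spleens: the median of the 28 was -0.92 without mutant 1 and 1.21 without wild type 2. An absent call here leaves wide room: the 95% intervals reached a median of 2.31 log2 units to either side of the estimate, from 1.54 to 2.63, and the median standard error was 0.99 against 0.27 for all genes tested.

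What the 28 genes shared instead was a large and common variation between spleens of the same genotype. The ratio of the highest to the lowest spleen was 4.89 to 23.0 with a median of 14.6, against a median of 3.16 for the 14730 tested genes with counts in every library. Within the mutant group the median SD of log2 CPM was 1.47 for these genes and 0.395 for all genes tested, and within the wild type it was 1.68 and 0.204. Summed over the 28 genes, the mutant spleens held 22383, 3601 and 5239 CPM (mutant 1 to 3) and the wild-type spleens 9022, 18841, 1793 and 1846 CPM (wild type 1 to 4). Each group therefore had spleens on both sides of the other group's values. Mutant 1 was the highest spleen for 15 genes and wild type 2 for the other 13, while wild type 3 and wild type 4 were each the lowest for 14. Mutant 1, wild type 1 and wild type 2 were the top 3 spleens for 24 genes, the exceptions being Tfrc, Car1, Alad and Cpox. Mutant 3 exceeded mutant 2 for 26 genes.

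**Figure D1:**
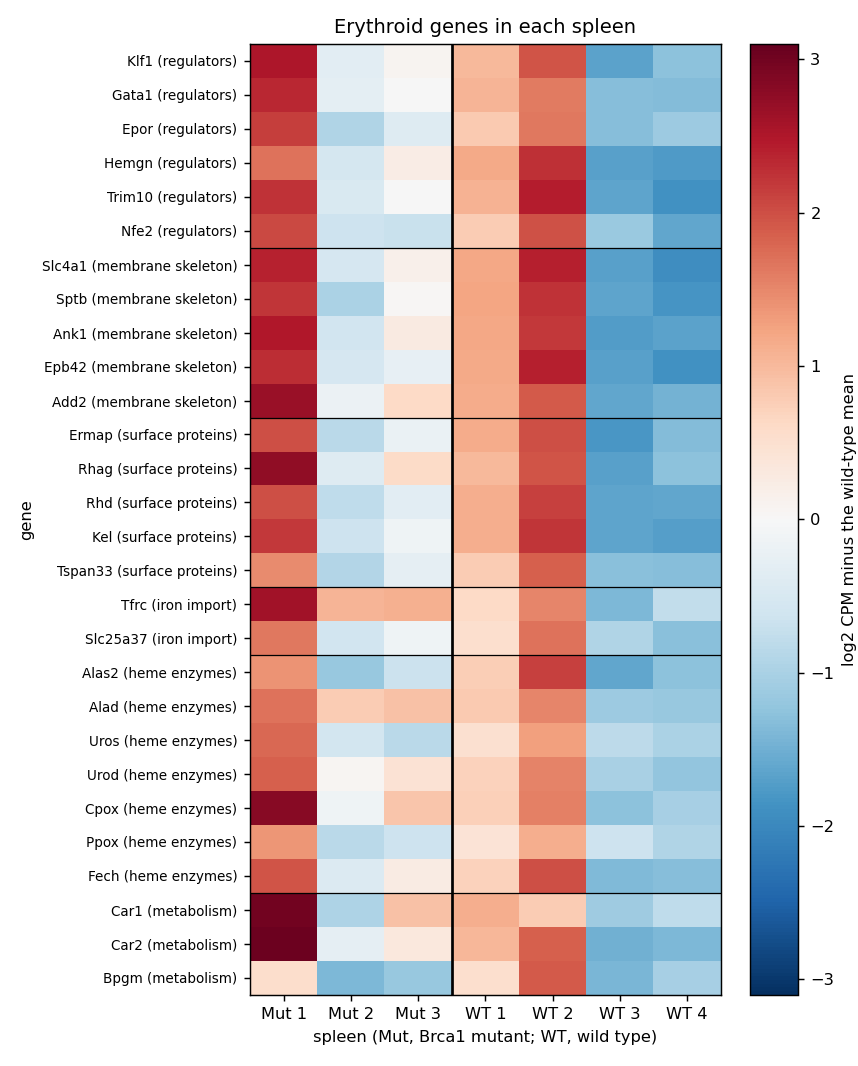
Heat map of log2 CPM minus the wild-type mean for the 28 genes (rows, grouped by role) in 3 mutant (Mut) and 4 wild-type (WT) spleens (columns); red is above and blue below the wild-type mean. The highest spleen of each row is mutant 1 or wild type 2 and the lowest is wild type 3 or 4. Tfrc, Alad and, narrowly in mutant 2, Urod are also above the wild-type mean in mutants 2 and 3.

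The regulators followed this order closely. Klf1 (chr8:84901928-84905295, plus strand, mm10) is the transcription factor that activates adult beta globin and many membrane genes. It was at 236.9, 33.2 and 44.2 CPM in mutants 1 to 3 and at 82.7, 159.8, 13.0 and 17.1 CPM in wild types 1 to 4. The 2 lowest and the highest spleen after mutant 1 were all wild type. Its log2 fold change was 0.62 (SE 1.00, edgeR adjusted p = 0.619). Gata1, the factor required for red cell survival, was at 194.0, 31.4 and 38.4 CPM in mutant and 79.5, 117.9, 15.4 and 15.3 CPM in wild-type spleens (log2 fold change 0.63, SE 0.91, adjusted p = 0.581). Gata1 overlaps the start-to-end spans of 8 other genes in the deposited coordinates, none of them among the 28. Whether reads were shared was not tested. Epor had the smallest single count of all 28 genes, 405 in mutant 2 (exact 95% Poisson interval 366.5 to 446.4, counting error only), so counting error was small beside the differences between spleens. Its levels were 119.2, 14.3 and 20.5 CPM in mutant and 48.0, 83.7, 10.9 and 12.5 CPM in wild-type spleens, with a log2 fold change of 0.41 and a 95% interval of -1.76 to 2.58. Nfe2, a subunit of a factor that binds globin control regions, Trim10, a ubiquitin ligase of late erythroblasts, and Hemgn, a nuclear protein of blood progenitors, had log2 fold changes of 0.16, 0.08 and -0.19.

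Membrane skeleton genes spread widely in both groups. Slc4a1 (chr11:102348820-102365281, minus strand) encodes band 3, the anion exchanger that anchors the skeleton to the membrane. It was at 3803, 514 and 815 CPM in mutants 1 to 3, against 1684, 3912, 227 and 193 CPM in wild-type spleens. Mutant 1 and wild type 2 thus stood side by side at the top, with wild type 1 next and the remaining mutants below it. The log2 fold change was 0.19 (SE 1.13, 95% interval -2.44 to 2.81, adjusted p = 0.902). Epb42, or protein 4.2, which links band 3 to ankyrin, was at 396, 57.3 and 68.9 CPM in mutant spleens and 183, 432, 25.4 and 22.1 CPM in wild-type spleens, with a log2 fold change of 0.07. Sptb (beta spectrin), Ank1 (ankyrin) and Add2 (beta adducin, which caps actin) had log2 fold changes of 0.10, 0.41 and 0.81 with adjusted p of 0.947, 0.77 and 0.511. Ank1 and Epb42, like Alas2, overlap microRNA genes in the deposited coordinates.

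Surface proteins showed equally little separation. Rhag, the Rh-associated glycoprotein that transports ammonia, was at 364, 41.4 and 81.7 CPM in mutant and 108.7, 211, 16.9 and 22.5 CPM in wild-type spleens (log2 fold change 0.86, SE 1.01, adjusted p = 0.495). For Rhd, its blood group partner, the value was 0.00 with a 95% interval of -2.45 to 2.44. Kel (the Kell blood group peptidase), Ermap (the Scianna blood group protein) and Tspan33 (a tetraspanin) had log2 fold changes of 0.13, 0.07 and -0.15. The composite promoter motif shown above for Epb42, Ermap, Kel and Rhag thus went with log2 fold changes of 0.07 to 0.86, none of them called.

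Tfrc (chr16:32608896-32632794, plus strand), like Car1, Alad and Cpox, had other top 3 spleens than the remaining genes. The transferrin receptor was at 1609, 550 and 564 CPM in mutants 1 to 3, against 405, 759, 101 and 156 CPM in wild-type spleens. All 3 mutants lay above wild types 1, 3 and 4, and only wild type 2 exceeded mutants 2 and 3. Its log2 fold change was 1.35 (SE 0.71, 95% interval -0.31 to 3.01, adjusted p = 0.14), and 1 library decided the call: without wild type 2 it was 2.04 with an edgeR adjusted p of 0.0359, where 51.3% of all tested genes were called. Besides red cell precursors, dividing lymphocytes also carry Tfrc, and cell division genes stood higher in every mutant than in every wild-type spleen (median 1.93, 2.22 and 2.07 log2 units above the wild-type mean, against -0.93 to 0.94); the part of this in the Tfrc value was not tested. Slc25a37, mitoferrin 1, which carries iron into mitochondria, was at 1593, 339 and 470 CPM in mutant and 743, 1655, 271 and 212 CPM in wild-type spleens, a log2 fold change of 0.15.

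**Figure D2:**
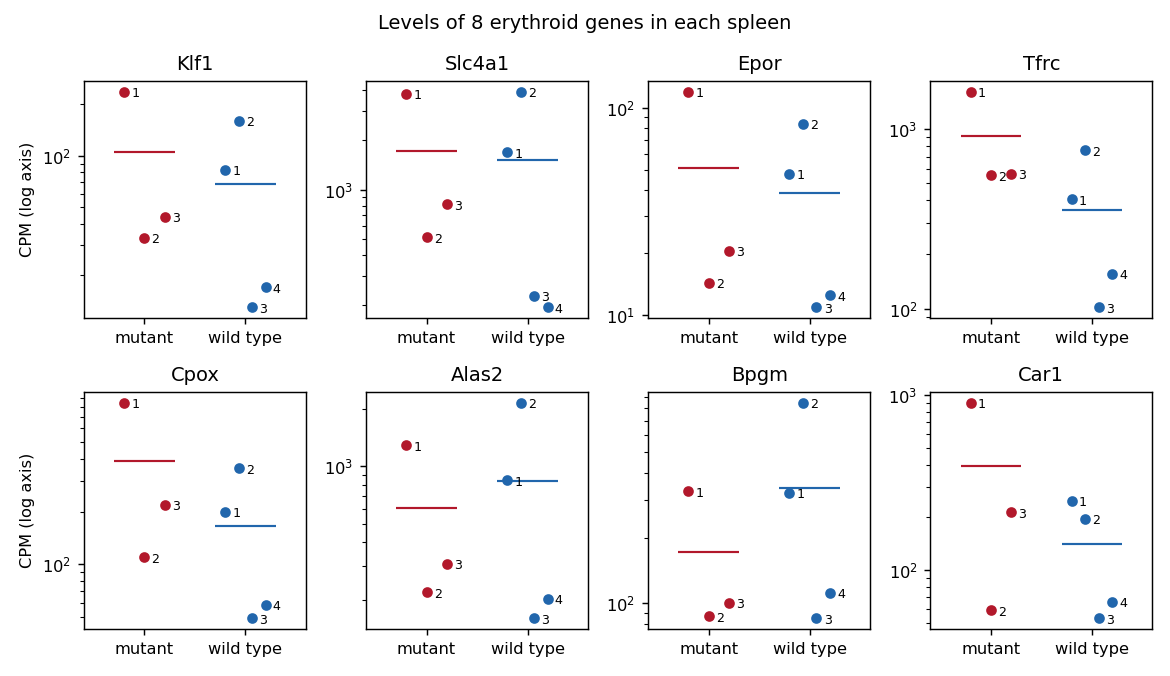
CPM on log axes for 8 genes, with each numbered point a spleen and the horizontal line the group mean (mutant n = 3, red; wild type n = 4, blue). The groups overlap in every panel; for Tfrc wild type 2 alone lies above mutants 2 and 3.

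Heme synthesis genes differed among themselves. Alas2 (chrX:150547417-150570622, plus strand), the rate-limiting first enzyme in red cells, was at 1285, 219 and 309 CPM in mutant and 843, 2150, 160 and 203 CPM in wild-type spleens. Here wild type 2 was the highest spleen by a wide margin, and mutants 2 and 3 lay just above wild types 3 and 4. The log2 fold change was -0.47 (SE 1.00, adjusted p = 0.709). Alad, the second enzyme, was at 280, 150.3 and 163 CPM in mutant and 152, 247, 39.9 and 38.5 CPM in wild-type spleens. Its mutant SD, 0.487 on the log2 scale, was the smallest of the 28 genes, and its log2 fold change was 0.73 (SE 0.66, adjusted p = 0.378). Cpox (chr16:58670208-58680389, plus strand), the sixth enzyme, was at 845, 109.6 and 218 CPM in mutant and 199.9, 355, 49.1 and 58.6 CPM in wild-type spleens (log2 fold change 1.24, SE 0.87, adjusted p = 0.254). Uros, Urod, Ppox and the last enzyme Fech had log2 fold changes of 0.34, 0.56, 0.10 and 0.28. Alad, Urod and the later enzymes of the pathway act in all cells, whereas Alas2 is the red cell form of its enzyme.

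Of the metabolic enzymes, Bpgm (chr6:34476356-34505610, plus strand), which makes the 2,3-bisphosphoglycerate that loosens oxygen from hemoglobin, had the lowest log2 fold change of the 28 genes. It was at 329, 86.7 and 100.6 CPM in mutant and 324, 852, 85.1 and 112 CPM in wild-type spleens. Mutant 1, at the top for most genes, only equalled wild type 1 here. The log2 fold change was -0.99 (SE 0.87, 95% interval -3.01 to 1.02, adjusted p = 0.357). Carbonic anhydrase 1, Car1, had the highest, 1.48 (SE 0.89, adjusted p = 0.191), from 906.8, 59.0 and 213 CPM in mutant and 249, 196.5, 53.1 and 65.9 CPM in wild-type spleens. Car2 was at 4810, 481 and 732 CPM in mutant and 1184, 2102, 209 and 221 CPM in wild-type spleens, a log2 fold change of 1.11. Mutant 1 was the highest spleen for both carbonic anhydrases.

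Levels of different genes can be set side by side only per length, here as CPM per kilobase of exon in GENCODE coding transcripts. By wild-type mean Car2 was the highest at 492, followed by Alas2 at 412 and Slc4a1 at 331, then Slc25a37 at 169 and Bpgm at 140. By mutant mean the order was Car2 at 1064, Slc4a1 at 376, Car1 at 315, Alas2 at 297 and Slc25a37 at 188. Add2 was the lowest in both groups, at 10.3 and 18.0. Group SDs were about as large as the means for most genes. The genes rose and fell together across spleens, so these SDs do not show how firm the order between genes was. Per kilobase, Car2 was above Alas2, and Alas2 above Slc4a1, in every wild-type spleen. In every mutant spleen Car2 was above Slc4a1. Other neighbours changed places between spleens, such as Slc4a1 and Slc25a37 in the wild type and Car1 and Alas2 in the mutants. The order was not tested.

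Relative to the wild-type mean of each gene, the median of the 28 genes was 2.16, -0.56 and 0.02 log2 units in mutants 1 to 3 and 1.00, 1.93, -1.44 and -1.33 in wild types 1 to 4. Genes of early erythroblasts (Epor, Gata1, Tfrc, Car1, Klf1) minus genes that peak late (Slc4a1, Alas2, Epb42, Bpgm, Slc25a37) gave a difference of mean log2 levels of 0.87, 0.55 and 0.75 in mutant and 0.08, -0.61, 0.11 and 0.42 in wild-type spleens. The 3 mutants were above the 4 wild types in this difference, but narrowly, with 0.55 in mutant 2 against 0.42 in wild type 4. Tfrc, which dividing lymphocytes also carry, is among the early genes. The order may therefore rest on Tfrc, and it does not show a shift in stage. The difference is a description without a test, since the genes on both sides were named with these values known.

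Because the spread followed a shared level, a further fit compared the genotypes at an equal erythroid level. It was added after the values had been seen. The level was the median log2 CPM of 37 other red cell genes, such as Tal1 and Cldn13, relative to the wild-type mean, and it entered the edgeR fit beside genotype. It was 1.79, -0.62 and -0.06 in mutant and 0.73, 1.52, -1.12 and -1.10 in wild-type spleens, so the groups covered much the same range. The level was itself measured in these libraries and its error does not enter the fit. All 28 genes had a called slope on it, from 0.80 to 1.46 log2 units per unit, against 3.01% of all genes tested, and the median SE of the genotype difference dropped from 0.99 to 0.17.

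At equal erythroid level 9 of the 28 genes (32.1%) were called between genotypes, below the 60.2% of all tested genes called in that fit. Higher in mutant were 7 genes, with 30.1% of all genes higher. Lower were 2 genes, with 30.2% of all genes lower. Tfrc had the largest increase, 1.28 log2 units (SE 0.22, adjusted p = 0.00279), followed by Alad at 0.87 (SE 0.28, adjusted p = 0.0297) and Cpox at 0.80 (SE 0.15, adjusted p = 0.00407). Smaller increases were called for Add2 (0.57), Car2 (0.56), Rhag (0.51) and Urod (0.46). Bpgm was lower, with a log2 difference of -1.05 (SE 0.22, adjusted p = 0.0064) and Alas2 had a difference of -0.60 (SE 0.19, adjusted p = 0.0294). Of the 7 heme enzymes, 3 (Alad, Cpox and Urod) were thus called higher and 1 (Alas2) lower for a given level of other red cell genes. Uros (-0.15), Ppox (-0.32) and Fech (0.19) were not called. Of the 2 iron importers, Tfrc was called and Slc25a37 (-0.07) was not. The heme and iron genes thus did not move as a set.

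The regulators Klf1, Gata1 and Epor were among the 19 genes without a call, with differences of 0.30, 0.26 and -0.15 and 95% intervals of -0.04 to 0.64, -0.09 to 0.61 and -0.52 to 0.22. Slc4a1 was at 0.16 (-0.37 to 0.68) and Epb42 at 0.00 (-0.49 to 0.50). For these quoted genes and this choice of level, the intervals leave room for changes of up to about 0.68 log2 units. They leave none for the sizes seen for Tfrc and Bpgm. Other genes without a call had wider intervals, such as Car1 at -0.40 to 1.68, which includes the size seen for Tfrc. The intervals do not carry over to another level. With the globin genes as the level, Klf1, Gata1, Slc4a1 and Epb42 were called higher in mutant spleens, and Epor was not called.

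**Figure D3:**
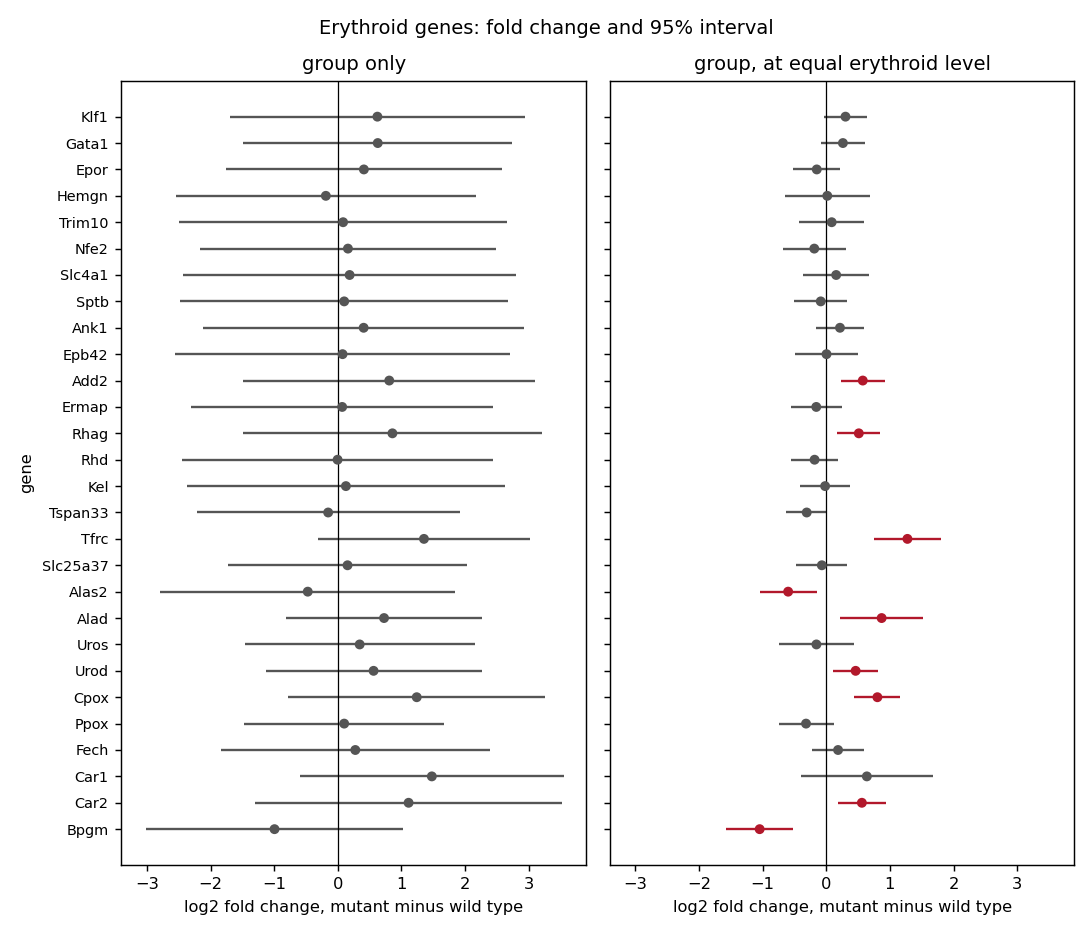
Log2 fold change (points) and 95% interval (bars) of each of the 28 genes from edgeR with genotype alone (left) and with the level of other red cell genes as a second term (right); red marks an adjusted p under 0.05. All intervals at left include 0, and at right 9 exclude it with an adjusted p under 0.05, 7 to the higher and 2 to the lower side.

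How far these calls stood depended on the gene. Tfrc, Cpox and Bpgm were called in all 12 settings of this fit, which comprised the original one, 2 other scalings, the globin genes as the level (with and without genes of identical counts), and each library left out in turn. The number of calls was 5 without mutant 3, 5 without wild type 1 and 12 without mutant 1. In those settings 56.7, 49.1 and 66.2% of all tested genes were called. Add2 was called in 10 settings, Rhag in 8, Alad and Car2 in 7, Urod in 6 and Alas2 in 5. With the globin genes as the level, 17 of the 28 genes were higher and 1, Bpgm, lower, where 58.6% of all tested genes were called. Alas2 turned to 0.11 in that setting. With globin genes of identical counts entered once, 19 were higher and 1 lower (58.7% of all tested genes called), and Alas2 was at 0.14. With library size alone, which shifted the median of all genes from -0.06 to -0.29, 2 were higher (Cpox, Tfrc) and 4 lower (Alas2, Bpgm, Rhd, Tspan33). There 58.3% of all tested genes were called. The split between higher and lower genes therefore changed with the reference.

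**Figure D4:**
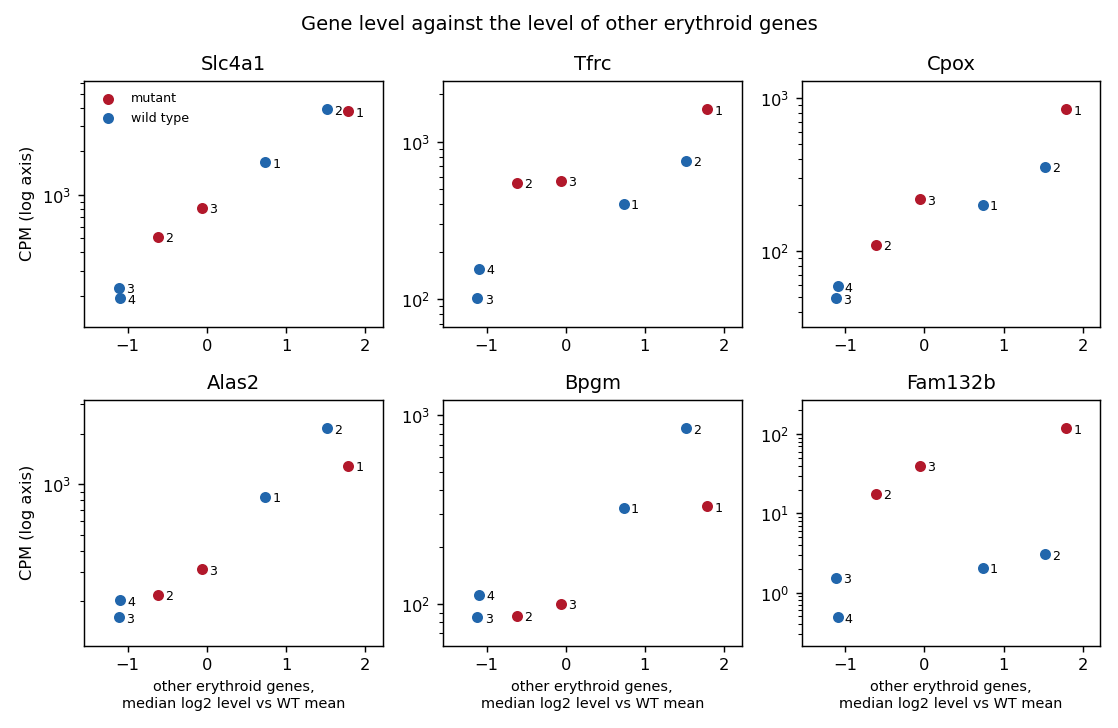
CPM (log axis) of 6 genes against the median log2 level of 37 other red cell genes relative to the wild-type mean; each numbered point is a spleen (mutant red, wild type blue). Slc4a1 follows 1 line in both groups, Tfrc, Cpox and Fam132b lie higher in the mutants at a given level, and Bpgm lies lower.

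In the erythropoietin pathway, 3 of 17 tested genes rose, 4 fell and 10 were not called (57.4% of all genes were called). The median log2 fold change of the 17 was 0.09. Among the 10 without a call were Cish (1.68), Pim1 (0.78), Socs3 (0.46), Bcl2l1 (0.07) and Socs2 (0.06). Fam132b, which encodes erythroferrone, the hormone that erythroblasts release under erythropoietin to lower hepcidin and free iron, was at 118.3, 17.7 and 39.7 CPM in mutant and 2.05, 3.04, 1.55 and 0.489 CPM in wild-type spleens. Every mutant lay well above every wild type, although wild type 1 exceeded mutants 2 and 3 for 25 of the 28 genes above. It rose by 5.07 log2 units (SE 0.81, edgeR adjusted p = 0.00154), and the difference at equal erythroid level was 4.55 (SE 0.45). Stat5a, a transducer of the receptor, rose by 1.53 (SE 0.17). Among the genes that fell were Sh2b3, an adaptor that restrains the receptor, with a log2 fold change of -1.98 (SE 0.14), and the kinases Jak2 and Lyn, with -1.26 and -3.12. Lymphocytes and myeloid cells also express Stat5a, Sh2b3, Jak2 and Lyn, and their part in these changes was not tested.

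Among 32 other iron and heme genes tested, 8 rose and 1 fell (9 called in all, 15 without mutant 1 and 4 with the replicate number as a block), where 57.4% of all tested genes were called. Clpx, a mitochondrial unfoldase known to activate the first enzyme of heme synthesis, rose by 0.80 log2 units (SE 0.12). Its level differed little between spleens of a genotype, at 54.0, 51.5 and 54.3 CPM in mutants 1 to 3, against 28.9, 30.5, 28.9 and 33.9 CPM in wild types 1 to 4. Of 37 other red cell genes 1 rose and 2 fell, against the same 57.4%; 5 were called without mutant 1 or without wild type 2, and 2 without mutant 2. The 3 called with all libraries were Mns1, a gene known from sperm cells (2.01), Acp5, an acid phosphatase also made by macrophages (-1.40), and the glucose transporter Slc2a1 (-1.15). The 8 tested globin genes had a median log2 fold change of -0.69. They held 5 distinct profiles, because copies such as Hba-a1 and Hba-a2 had identical counts in every library and reads may be counted for both. With each profile counted once, globin made up 1.66, 0.343 and 0.422% of counts in mutants 1 to 3, against 1.53, 3.65, 0.289 and 0.376% in wild types 1 to 4.

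Markers of other cells that share some of these genes, or handle red cells, gave counts that depended on single libraries; 28.9% of all tested genes fell. Of 14 megakaryocyte markers, which share Gata1 and Nfe2 with red cells, 11 fell, with a summed level of 20.4 to 146 CPM in mutant and 354 to 459 CPM in wild-type spleens. The number called was 3 without wild type 2, 6 without mutant 1 or wild type 1, and 7 without wild type 3 or 4. Red pulp macrophages clear old red cells and recycle their iron, and 2 of 13 of their markers fell, with summed levels of 585 to 2860 CPM in mutant and 3113 to 3417 CPM in wild-type spleens. The number called was 10 without mutant 1, 5 without mutant 3, 1 without mutant 2 or any 1 wild type, 6 with DESeq2 and 8 with limma-voom. Of 10 mast cell and basophil markers 4 fell, with summed levels of 6.02 to 29.4 CPM in mutant and 30.4 to 35.6 CPM in wild-type spleens. The number called was 7 without mutant 1, 2 without wild type 2 and 1 with a filter at a mean of 5 CPM. The part of these cells in the erythroid values was not tested.

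The 10 genes most like the 28 were picked among 10843 genes whose mean reached 5 CPM. Log2 levels were centred within each genotype, so a difference between genotypes did not count. The measure was the root mean square difference from the median pattern of the 28 over 7 spleens. Among the 10 were Cldn13, Abcg4, Pnp2, Abcb10, Acmsd, Tom1l1, Tal1, Slc38a5 and Slc2a4. The 10 lay at 0.122 to 0.162 log2 units, small values by their selection. The median was 0.247 for the 28 themselves and 1.38 for all tested genes. Cldn13, the nearest, was at 188.8, 25.7 and 40.3 CPM in mutant and 69.1, 110.9, 10.4 and 13.9 CPM in wild-type spleens. Of the 50 nearest genes, 19 stood in the lists of other red cell, globin or iron and heme genes. Those lists held 37, 12 and 33 genes of the deposited table, before the filter at 5 CPM.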

How the data were processed

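The submitters' processing notes name mm10 as the build and list these tools: TopHat2 2.0.12, bcl2fastq 2.17.1.14, edgeR, and Subread 1.4.6 with featureCounts. How they were set, including strand, is not given in the sources used here. Raw counts per gene were deposited for the 7 spleens. The deposited CPM table was those counts times 1 constant per library (largest relative deviation 5.09e-15), with 4455 genes left empty. Tests used the counts. The main fit was the quasi-likelihood test of edgeR 4.0.16 (R 4.3.3) with TMM factors, filterByExpr and genotype as the only term, with Benjamini-Hochberg adjustment over all tested genes and a threshold of 0.05. An SE is the log2 fold change over the square root of F. Both fits were tested on simulated data. Alternatives were RLE factors, library size alone, globin genes removed, no filter, a mean of at least 5 CPM, DESeq2 1.42.0, limma-voom (limma 3.58.1), a replicate block and each library left out. The genes and all lists were chosen with earlier results of these data known. Named by rule were the 28 genes, Brca1, up to 3 genes of each list by smallest p, and the 10 genes most like the 28; a few of these are not reported here. Jak2, Lyn, the erythropoietin pathway genes named as not called and the iron genes with hairpins were named after their values were seen. The fit at equal erythroid level was added after seeing the data.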

Additional observations from a re-analysis of the deposited data

How the results depend on the processing

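Leaving out wild type 2 gave 1 call (Tfrc) among the 28 genes, leaving out any other library gave 0, and no other setting run changed a call in the genotype comparison. Directions did change: with each library left out in turn, log2 fold changes of 23 of the 28 genes crossed 0, 19 of them without mutant 1. For the regulators the range was -0.75 to 1.48 (Klf1), -0.63 to 1.26 (Gata1), -1.08 to 1.11 (Epor), -1.28 to 1.11 (Nfe2), -0.98 to 0.81 (Hemgn), -1.17 to 1.25 (Trim10). For the membrane skeleton the range was -1.11 to 1.28 (Slc4a1), -1.25 to 1.06 (Sptb), -0.93 to 1.34 (Ank1), -1.32 to 1.18 (Epb42), -0.40 to 1.58 (Add2). For surface proteins the range was -1.20 to 0.90 (Ermap), -0.48 to 1.71 (Rhag), -1.32 to 0.93 (Rhd), -1.20 to 1.12 (Kel), -1.11 to 0.71 (Tspan33). For iron import and heme enzymes the range was -0.76 to 0.97 (Slc25a37), -1.60 to 0.58 (Alas2), -0.92 to 0.91 (Uros), -0.10 to 1.24 (Urod), -0.89 to 0.59 (Ppox), -0.66 to 1.26 (Fech). Car2 ran from -0.55 to 1.89.

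Library size alone moved the share of higher genes among all calls from 49.7% to 38.1%. It gave -0.026 for Sptb, -0.043 for Epb42, -0.066 for Ermap, -0.036 for Trim10 and -0.066 for Ppox. A filter at a mean of 5 CPM gave -0.020, -0.044, -0.054, -0.038 and -0.029 for the same genes. Rhd was at 0.0062 with RLE factors, 0.036 with globin genes removed, 0.015 without a filter and 0.0046 with DESeq2. With limma-voom Rhd was at 0.44, Hemgn at 0.45 and Tspan33 at 0.17. Called other red cell genes numbered 2 to 5 with libraries left out, and called iron and heme genes 6 to 15. At equal erythroid level 9 genes were called, 18 with the globin genes as the level, where Alas2 was at 0.11, 20 with globin genes of identical counts entered once, where it was at 0.14, and 5 to 12 with libraries left out. Of all tested genes, 60.2, 58.6, 58.7 and 48.2 to 66.2% were called in those settings. The cause of these shifts was not tested.

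Replicate numbers did not pair the samples: deviations of same-numbered spleens correlated at 0.04, -0.19 and 0.10 across genes, and mutant 1 correlated best with wild type 2. With the replicate number as a block 40.1% of genes were called, 4 iron and heme genes were called, and Slc25a37 was at -0.035, Nfe2 at -0.19, Uros at -0.18 and Ppox at -0.32. The smallest count of any of the 28 genes in a library was 405, so counting error was small beside the spread between spleens, and the number of spleens limits the precision.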
